A study of Mus musculus with 36 samples.

Results

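The endothelial and angiogenic genes described here are 10 genes chosen by symbol: the vascular endothelial growth factors Vegfa and Vegfb, their receptors Kdr and Flt1, the angiopoietin Angpt1 and its receptor Tek, the peptide Apln and its receptor Aplnr, and the junction genes Pecam1 and Cdh5. They were taken from the deposited table by gene name, and all 10 were found among its 25626 listed genes. All 10 also passed the filter on low values, which left 16275 genes for testing.

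The study sequenced RNA from whole mouse hearts in 6 groups of 6 libraries. The groups were cSirt4-Tg mice after transverse aortic constriction (TAC) with MitoQ (cSirt4-Tg-TAC-MQ), control mice after TAC with MitoQ (Con-TAC-MQ), cSirt4-Tg mice after TAC with vehicle (cSirt4-Tg-TAC), control mice after TAC with vehicle (Con-TAC), cSirt4-Tg mice after sham surgery with vehicle (cSirt4-Tg-Sham) and control mice after sham surgery with vehicle (Con-Sham). TAC narrows the aorta and puts the left ventricle under pressure, and MitoQ is an antioxidant that accumulates in mitochondria. The study's stated purpose was to find pathways through which mitochondrial reactive oxygen species might worsen heart muscle disease in cSirt4-Tg mice. The sources used here do not give the age of the mice, the time after surgery or the promoter of the transgene. They do not say whether libraries of a group were handled together, and p-values measure the spread between these libraries.

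Vascular endothelial growth factor A, made in the heart largely by cardiomyocytes, drives vessel growth through the receptor kinase encoded by Kdr, while the receptor encoded by Flt1 binds it tightly and limits that signal. Angiopoietin 1 binds the receptor kinase Tek (Tie2) on endothelial cells and stabilises vessels, and apelin acts on the G protein-coupled receptor Aplnr in endothelial cells and in heart muscle. Pecam1 and Cdh5 encode adhesion proteins of the contacts between endothelial cells.

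The libraries held 14.83 to 60.01 M reads over the listed genes, with a median of 28.37 M. Sirt4 was not higher in the libraries labelled cSirt4-Tg: it averaged 361.8 ± 57.8 normalized read counts in cSirt4-Tg-TAC and 341.0 ± 49.6 in Con-TAC, and 377.2 ± 47.99 in cSirt4-Tg-Sham and 411.7 ± 96.6 in Con-Sham (SD, n = 6 each; limma adjusted p = 0.671 and 0.739), so genotype names are those of the labels. With MitoQ it averaged 349.2 ± 22.5 in cSirt4-Tg-TAC-MQ and 353.2 ± 18.6 in Con-TAC-MQ. Library names carry a number of unstated meaning, which was 20 or 21 in all MitoQ libraries and 7 to 14 in 5 of 6 libraries of each vehicle TAC group, so that MitoQ and this number can hardly be told apart. The exceptions are cSirt4-Tg-TAC 6, named 29, and Con-TAC 6, named 20. Fits that also hold the class of this number separate it from MitoQ by Con-TAC 6 alone. Cardiomyocyte markers were abundant in the libraries, with 12 of them summing to between 1329650 and 3269520 normalized counts in every library. The 25 endothelial markers other than the 10 genes summed to between 42021 and 58426, and none was at 0 throughout a group. The library cSirt4-Tg-TAC 4 stood apart: its 6 adipocyte markers summed to 34552, against 295.6 in the next highest of all libraries, and it had the fewest reads (14.83 M), the lowest mitochondrial share (13.1%) and the highest share of Rn18s-rs5, an 18S ribosomal RNA sequence (11.8%).

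The 10 genes spanned a wide range of levels, with both growth factors on top and apelin at the bottom. Levels between genes were set per kilobase of merged exons in GENCODE M21, as normalized counts per kilobase over all 36 libraries (mean ± SD). Vegfb stood highest at 4199 ± 700.7, followed by Vegfa at 1979 ± 336.5 and Cdh5 at 1359 ± 161.1, and each lay above the next in 36 of 36 libraries. Pecam1 at 683.2 ± 71.1 and Kdr at 591.5 ± 134.7 were close, with Pecam1 above Kdr in 24 of 36 libraries. Tek at 339.2 ± 43.4 and Flt1 at 317.5 ± 52.9 were also close, with Tek above in 23 of 36. Aplnr had 197.4 ± 71.0 and Angpt1 139.1 ± 68.2, in that order in 24 of 36 libraries. Apln was lowest at 86.8 ± 33.5, below Angpt1 in 29 of 36. A receptor was thus less abundant per kilobase than its growth factor for VEGF, and more abundant than its ligand in the angiopoietin and apelin pairs.

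**Figure D1:**
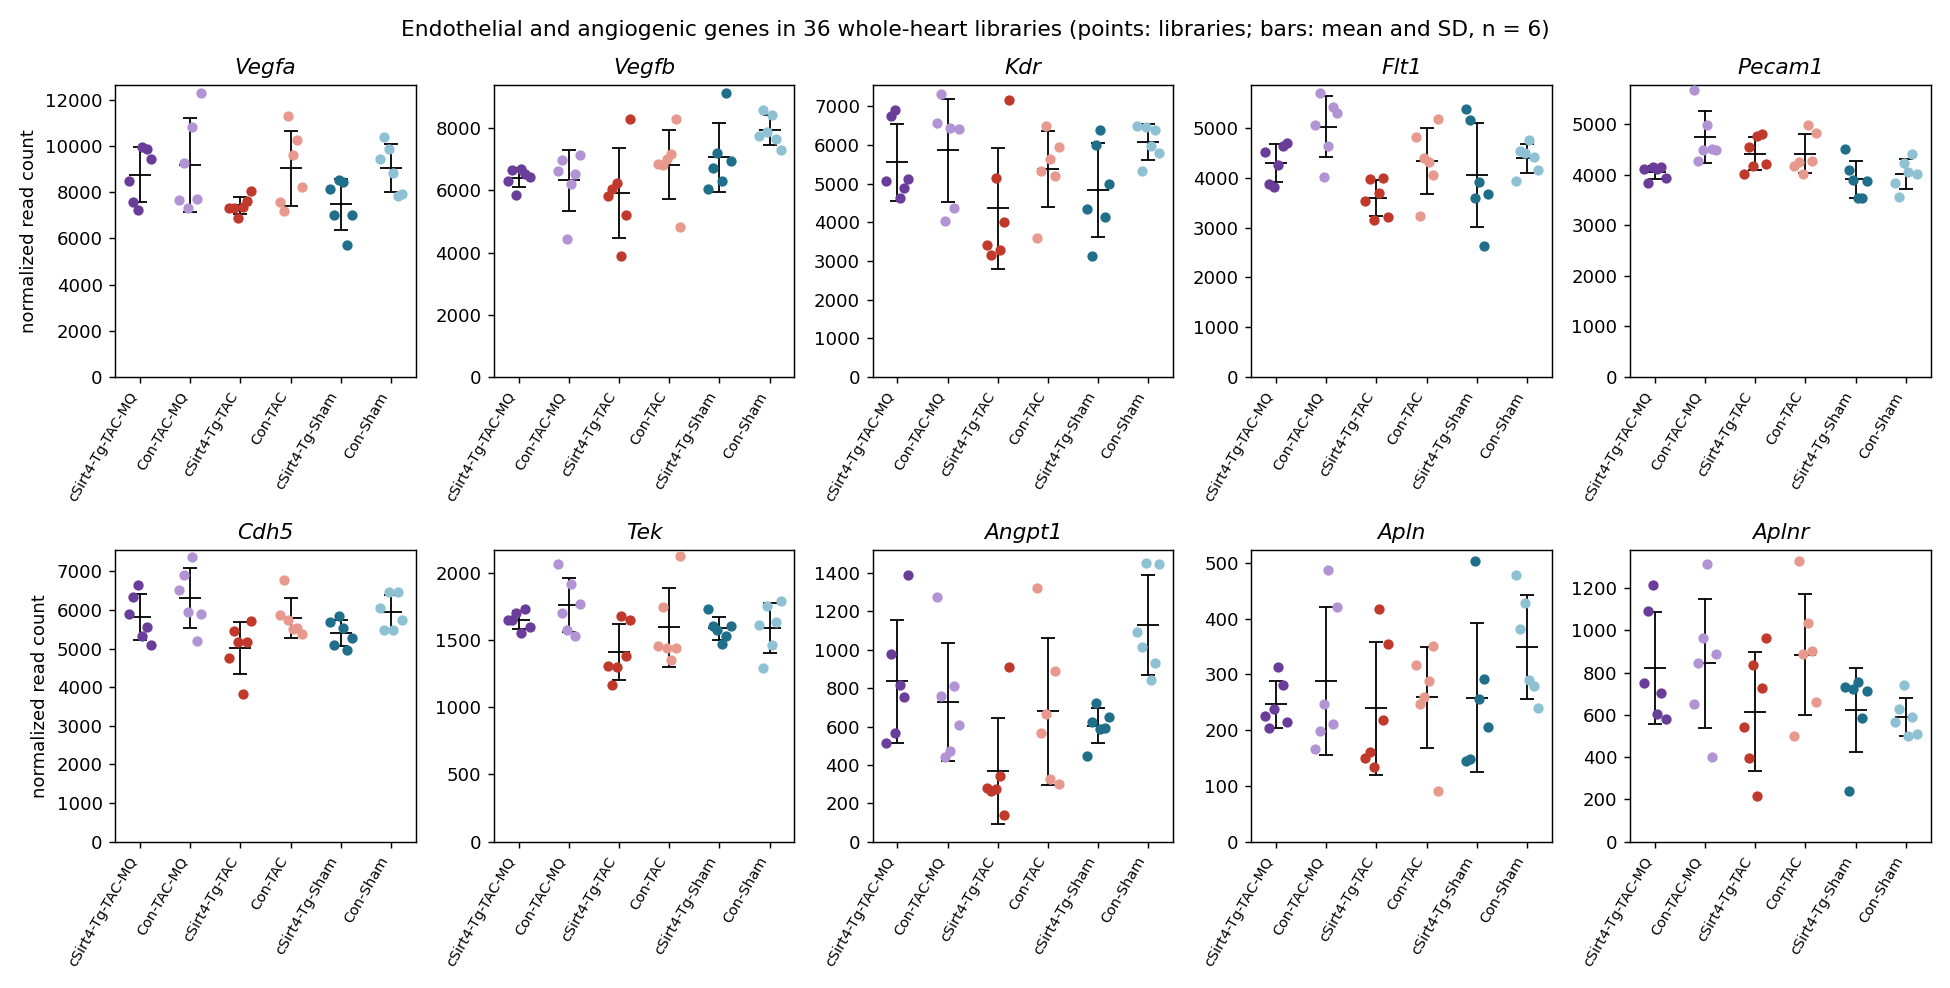
Normalized read counts (vertical axes, from 0) of the 10 genes in each of the 36 libraries (points), with the mean and SD of each group of 6 (bars). Angpt1 has the widest separation of groups, from a mean of 368.0 in cSirt4-Tg-TAC up to 1130 in Con-Sham, while Pecam1, Cdh5 and Tek stay in narrow ranges.

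Across the comparisons, Angpt1 was the gene that changed, and the other 9 were not called in any of them. A call is a limma adjusted p under 0.05 over all 16275 genes. After TAC in the hearts labelled cSirt4-Tg, cSirt4-Tg-TAC against cSirt4-Tg-Sham, 1 of 10 genes was called, Angpt1, which fell, where 16.7% of all genes were called and 8.77% fell. With MitoQ in these hearts, cSirt4-Tg-TAC-MQ against cSirt4-Tg-TAC, 1 of 10 was called, Angpt1 again, which rose, against 17.3% of all genes called and 9.89% that rose. These 2 comparisons share the cSirt4-Tg-TAC libraries. In Con-TAC against Con-Sham 0 of 10 were called, against 5.3% of all genes. The count was also 0 for cSirt4-Tg-TAC against Con-TAC (6.48% of all genes), for cSirt4-Tg-Sham against Con-Sham (0.873%), for Con-TAC-MQ against Con-TAC (3.23%) and for cSirt4-Tg-TAC-MQ against Con-TAC-MQ (0.0737%). A count of 1 in 10 is near the share of all genes in the comparisons within cSirt4-Tg. At an unadjusted limma p under 0.05 the 10 genes gave 1 in Con-TAC against Con-Sham (22.5% of all genes), 4 in cSirt4-Tg-TAC against Con-TAC (26.5%) and 2 in cSirt4-Tg-Sham against Con-Sham (13.1%). They gave 0 in Con-TAC-MQ against Con-TAC (18.8%) and 1 in cSirt4-Tg-TAC-MQ against Con-TAC-MQ (4.11%). edgeR and DESeq2 on the recovered reads called 0 of the 10 in each of these 5 comparisons. Within cSirt4-Tg the unadjusted counts were 3 with TAC (31.9% of all genes) and 5 with MitoQ (31.8%).

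Small differences without a call leaned one way in several comparisons. In cSirt4-Tg-TAC against Con-TAC 9 of 10 log2 differences were negative, with a median of -0.24, where the median of all genes was 0.00. In cSirt4-Tg-Sham against Con-Sham 9 of 10 were negative as well, with a median of -0.17 against 0.00 for all genes. With MitoQ in the hearts labelled cSirt4-Tg 9 of 10 were positive, with a median of 0.23 against 0.00. The lone exception there was Pecam1. In Con-TAC-MQ against Con-TAC 8 of 10 were positive with a median of 0.12, and in cSirt4-Tg-TAC-MQ against Con-TAC-MQ 8 of 10 were negative with a median of -0.07. Of the 25 other endothelial markers 9 were positive with MitoQ in the hearts labelled cSirt4-Tg, with a median of -0.16. In controls 11 were positive with MitoQ, with a median of -0.07. These medians have the opposite sign to those of the 10 genes. The 25 had the same sign in cSirt4-Tg-TAC against Con-TAC (median -0.12), cSirt4-Tg-Sham against Con-Sham (-0.05) and cSirt4-Tg-TAC-MQ against Con-TAC-MQ (-0.12). In Con-TAC against Con-Sham 8 of the 10 genes were negative (median -0.03), and 20 of the 25 markers were positive (median 0.12). In cSirt4-Tg-TAC against cSirt4-Tg-Sham 8 of the 10 were negative (median -0.13), and 18 of the 25 were positive (median 0.13). The medians of all genes there were 0.01 and -0.01. The 10 genes are not independent of each other, and the comparisons share groups. In whole-heart RNA, fewer endothelial cells and less RNA per cell cannot be told apart.

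**Figure D2:**
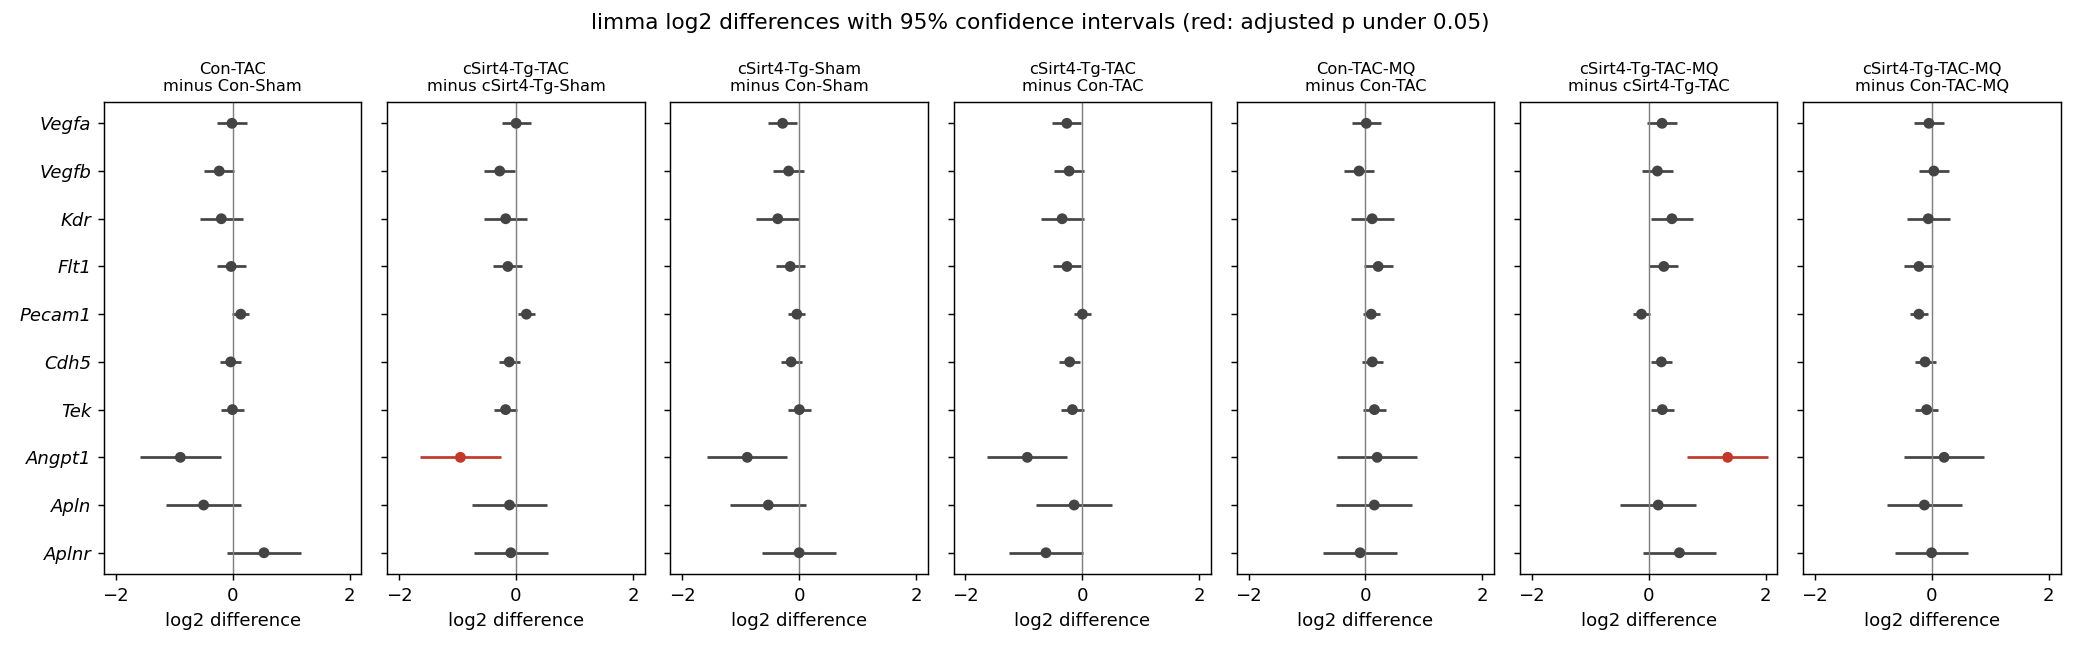
limma log2 differences (horizontal axes) with 95% confidence intervals for the 10 genes in 7 comparisons of 2 groups, with calls in red. Angpt1 is the gene in red, at -0.95 in cSirt4-Tg-TAC minus cSirt4-Tg-Sham and at 1.35 in cSirt4-Tg-TAC-MQ minus cSirt4-Tg-TAC.

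Among the growth factors, Vegfa (ENSMUSG00000023951, mm39 chromosome 17, 46327919 to 46343295, minus strand) held a nearly even level. Its lowest, median and highest normalized counts were 7225, 8959 and 9940 in cSirt4-Tg-TAC-MQ, 7304, 8471 and 12310 in Con-TAC-MQ, 6900, 7327 and 8060 in cSirt4-Tg-TAC, 7167, 8913 and 11298 in Con-TAC, 5717, 7569 and 8506 in cSirt4-Tg-Sham, and 7827, 9135 and 10390 in Con-Sham. Every pair of groups overlapped, and both vehicle groups labelled cSirt4-Tg had the lowest medians. The log2 difference was -0.26 in cSirt4-Tg-TAC against Con-TAC (SE 0.12, limma, adjusted p = 0.164, with 6 of 6 libraries lower than the Con-TAC mean). It was -0.28 in cSirt4-Tg-Sham against Con-Sham (SE 0.12, adjusted p = 0.307, 6 of 6), so neither passed the threshold. TAC against sham gave 0.00 within cSirt4-Tg, with a 95% interval from -0.25 to 0.25, and -0.01 within controls, from -0.26 to 0.24. Changes of that size in either direction stay within these intervals.

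Vegfb (ENSMUSG00000024962, mm39 chromosome 19, 6959841 to 6965019, minus strand), a ligand of Flt1 that is abundant in heart muscle, was highest in the control sham hearts. It ranged over 5838, 6472 and 6682 (lowest, median, highest) in cSirt4-Tg-TAC-MQ, 4419, 6577 and 7140 in Con-TAC-MQ, 3887, 5922 and 8306 in cSirt4-Tg-TAC, 4829, 6929 and 8283 in Con-TAC, 6047, 6830 and 9125 in cSirt4-Tg-Sham, and 7304, 7810 and 8591 in Con-Sham. The cSirt4-Tg-TAC group was the widest, because library 6 reached 8306 and the other 5 lay between 3887 and 6223. Against cSirt4-Tg-Sham the log2 difference in cSirt4-Tg-TAC was -0.28 (SE 0.13, limma, adjusted p = 0.131, with 5 of 6 libraries lower), and without cSirt4-Tg-TAC 6 it was -0.38 (adjusted p = 0.0174). Over all genes 4606 were called without that library, against 2716 with it. Against Con-TAC the Vegfb difference was -0.23 (adjusted p = 0.262). Among libraries named 7 to 14, the 5 cSirt4-Tg-TAC libraries ranged from 3887 to 6223 and the 5 Con-TAC libraries from 6822 to 8283. The log2 difference there was -0.43 (adjusted p = 0.0287), where 3347 of all genes were called, against 1054 over all libraries. In cSirt4-Tg-TAC-MQ against cSirt4-Tg-TAC the log2 difference was 0.15 (adjusted p = 0.448), and 0.76 in a fit that also holds the name number class. That value rests on Con-TAC 6, the lowest Vegfb library of its group (4829).

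The promoters of the receptor genes Kdr and Flt1 are shown side by side because both receptors bind the same growth factor, while their genes did not pass a test for varying together between hearts of one group. The windows, 250 bases before to 50 after the gene start in RefSeq on GRCm38.p6, were Kdr on chr5:75978406-75978705 and Flt1 on chr5:147725962-147726261, both on the minus strand. This build differs from that of the count table. Capitals mark GGAAG or its complement CTTCC, a longer form of the GGAA core bound by ETS factors, which are widely used in endothelial genes. GGAA followed by another base is neither marked nor counted.
Kdr: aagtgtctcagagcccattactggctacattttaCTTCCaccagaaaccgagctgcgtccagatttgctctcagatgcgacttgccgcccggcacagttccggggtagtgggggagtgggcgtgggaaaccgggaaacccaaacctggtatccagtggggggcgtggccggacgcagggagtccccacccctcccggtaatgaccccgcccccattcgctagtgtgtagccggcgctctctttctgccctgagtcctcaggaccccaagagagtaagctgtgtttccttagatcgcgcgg
Flt1: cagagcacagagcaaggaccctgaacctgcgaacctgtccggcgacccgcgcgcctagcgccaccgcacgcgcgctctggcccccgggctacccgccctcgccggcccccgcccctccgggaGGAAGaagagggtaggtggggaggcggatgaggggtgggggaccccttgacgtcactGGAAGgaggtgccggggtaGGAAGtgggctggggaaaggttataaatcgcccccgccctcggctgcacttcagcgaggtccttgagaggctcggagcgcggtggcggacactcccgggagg
The motif was found in 1 place in the Kdr window and in 3 places in the Flt1 window. Among 32851 RefSeq promoters of the same length, 71.41% hold it at least once and 16.53% at least 3 times, so that either count is common. The hypoxia response core was searched in the form ACGTG, with its complement CACGT, which was in neither window and in 19.62% of all promoters. The form GCGTG, with its complement CACGC, is neither marked nor counted, and it occurs in both windows. Both windows are rich in G and C, with 60.67% in Kdr and 70.67% in Flt1, against a median of 52.67%. A match describes these letters and was not tested for binding. Promoters were matched for 6 of the 10 genes.

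Of the VEGF receptors, Kdr (ENSMUSG00000062960, mm39 chromosome 5, 76093487 to 76139118, minus strand), the main signalling receptor, spread widely within groups. Its lowest, median and highest counts were 4621, 5087 and 6901 in cSirt4-Tg-TAC-MQ, 4030, 6427 and 7326 in Con-TAC-MQ, 3143, 3710 and 7171 in cSirt4-Tg-TAC, 3603, 5488 and 6496 in Con-TAC, 3132, 4669 and 6397 in cSirt4-Tg-Sham, and 5324, 6186 and 6479 in Con-Sham. Again cSirt4-Tg-TAC 6 was the high library of its group. With MitoQ, Kdr in cSirt4-Tg-TAC-MQ differed from cSirt4-Tg-TAC by log2 0.40 (SE 0.18, limma, adjusted p = 0.123, with 6 of 6 libraries higher), which did not pass. It passed without cSirt4-Tg-TAC 6, at log2 0.56 with adjusted p = 0.0137. Without that library Kdr also passed in cSirt4-Tg-TAC against Con-TAC, at log2 -0.50 with adjusted p = 0.0299, where it was -0.34 with adjusted p = 0.217 over all libraries. Leaving it out also raised the calls over all genes, from 2821 to 4444 with MitoQ and from 1054 to 3642 against Con-TAC.

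Flt1 (ENSMUSG00000029648, mm39 chromosome 5, 147498414 to 147662821, minus strand), the high-affinity receptor that also yields a soluble decoy, had its lowest mean in cSirt4-Tg-TAC. It ranged over 3810, 4394 and 4701 in cSirt4-Tg-TAC-MQ, 4028, 5179 and 5715 in Con-TAC-MQ, 3162, 3619 and 3998 in cSirt4-Tg-TAC, 3241, 4370 and 5193 in Con-TAC, 2626, 3795 and 5377 in cSirt4-Tg-Sham, and 3948, 4464 and 4766 in Con-Sham. The groups overlapped in each of the 7 comparisons. In cSirt4-Tg-TAC-MQ Flt1 lay log2 0.26 above cSirt4-Tg-TAC (SE 0.12, limma adjusted p = 0.137, 6 of 6 libraries). In cSirt4-Tg-TAC it lay log2 -0.26 from Con-TAC (SE 0.12, adjusted p = 0.163, 6 of 6). Neither passed the threshold. The first turned to -0.10 in the fit that also holds the name number class, which rests on Con-TAC 6 for that class.

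In the rest of the VEGF family the neuropilin coreceptors and Flt4 were called. Among 6 further ligands and receptors, 1 rose and 1 fell in cSirt4-Tg-TAC against cSirt4-Tg-Sham (16.7% of all genes called), and 2 rose with MitoQ in the hearts labelled cSirt4-Tg (17.3%). None was called in the other 5 comparisons. Nrp1, neuropilin 1, which binds Vegfa together with Kdr, averaged 3789 ± 320 in cSirt4-Tg-TAC-MQ, 2568 ± 691 in cSirt4-Tg-TAC and 3363 ± 589 in cSirt4-Tg-Sham. It rose by log2 0.60 with MitoQ (SE 0.14, limma adjusted p = 0.00323) and fell by 0.41 on the log2 scale with TAC (adjusted p = 0.0340). Nrp2, its relative, averaged 1713 ± 204 in cSirt4-Tg-TAC-MQ and 1201 ± 134 in cSirt4-Tg-TAC (log2 0.51, adjusted p = 0.00440). Its values ran from 1358 to 1968 and from 949 to 1315. Flt4, the receptor of lymphatic growth factors, rose by log2 0.30 in cSirt4-Tg-TAC against cSirt4-Tg-Sham (adjusted p = 0.0490).

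Angpt1 (ENSMUSG00000022309, mm39 chromosome 15, 42288119 to 42540373, minus strand) varied most of the 10 genes. Its lowest, median and highest counts were 513.4, 783.5 and 1391 in cSirt4-Tg-TAC-MQ, 443.1, 684.9 and 1278 in Con-TAC-MQ, 137.8, 275.1 and 911.1 in cSirt4-Tg-TAC, 299.7, 617.2 and 1323 in Con-TAC, 446.6, 607.1 and 724.2 in cSirt4-Tg-Sham, and 843.8, 1054 and 1454 in Con-Sham. Of the cSirt4-Tg-TAC libraries 5 lay between 137.8 and 344.9, below every MitoQ library and every sham library, and library 6 stood apart at 911.1. All Con-Sham libraries lay above all cSirt4-Tg-Sham libraries.

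With MitoQ, Angpt1 averaged 835.5 ± 320.2 in cSirt4-Tg-TAC-MQ and 368.0 ± 274.4 in cSirt4-Tg-TAC (SD, n = 6 each). It rose by log2 1.35 (SE 0.34, 95% interval 0.66 to 2.04, limma, adjusted p = 0.00647, with 6 of 6 libraries higher). The call held in all 26 alternatives run, at log2 1.12 to 2.59 and adjusted p = 6.01e-05 to 0.0285. The largest of these, 2.59, was the value in the fit that also holds the name number class, which rests on Con-TAC 6 for that class. The difference was 1.38 without cSirt4-Tg-TAC 4 (adjusted p = 0.0120) and 1.66 without cSirt4-Tg-TAC 6 (adjusted p = 0.000226). In controls Angpt1 averaged 729.1 ± 306.9 in Con-TAC-MQ and 679.1 ± 384.6 in Con-TAC, a log2 difference of 0.20 (95% interval -0.49 to 0.89, adjusted p = 0.804). The difference between these effects of MitoQ was log2 1.15 (SE 0.48, limma adjusted p = 0.574), so that a difference between genotypes was not established. Limma called 0 of the 16275 genes in this test, where 1377 (8.46%) had an unadjusted p under 0.05. The share of Rn18s-rs5 was 0.591% to 1.33% in cSirt4-Tg-TAC-MQ and 2.38% to 11.8% in cSirt4-Tg-TAC, and 0.636% to 1.39% in Con-TAC-MQ and 1.55% to 9.22% in Con-TAC, with no overlap in either pair. The mitochondrial share was 19.5% to 22.6% in cSirt4-Tg-TAC-MQ and 13.1% to 19.6% in cSirt4-Tg-TAC, and 16.6% to 23.2% in Con-TAC-MQ and 17.3% to 24.9% in Con-TAC. The part of these shares in the Angpt1 differences was not tested. All libraries with MitoQ carry the name numbers 20 and 21, and in controls the vehicle library with that number, Con-TAC 6, had the lowest Angpt1 of its group, 299.7.

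**Figure D3:**
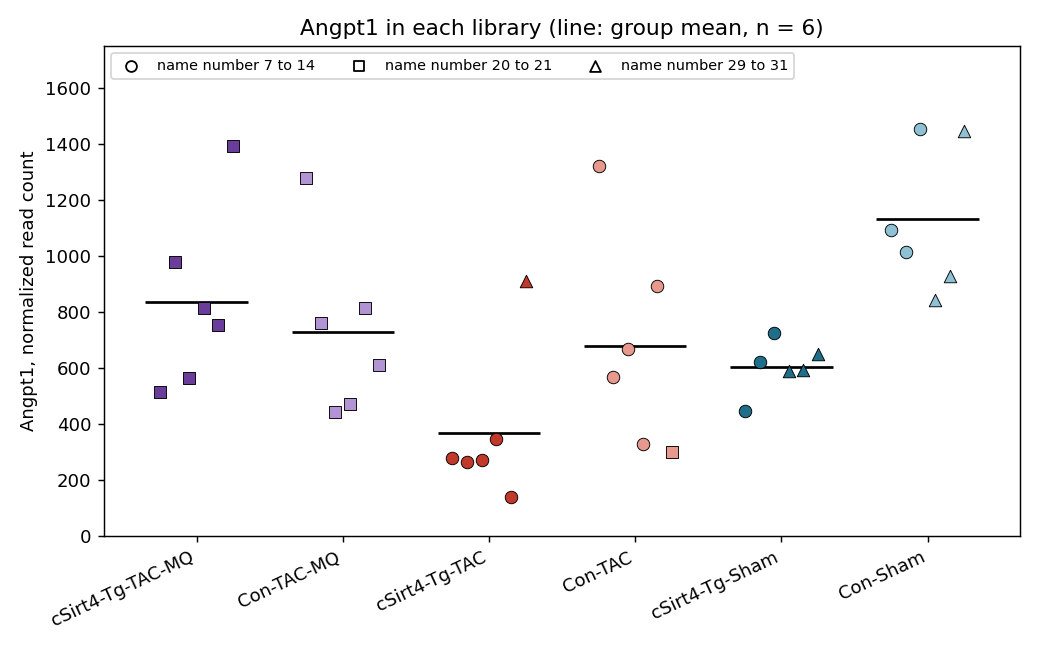
Angpt1 normalized read counts (vertical axis, from 0) in each library by group, with lines at the group means of 6 and the shape of a point giving the class of the number in the library name. In cSirt4-Tg-TAC 5 libraries lie at 137.8 to 344.9 and the library named 29 at 911.1.

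After TAC the mean of Angpt1 was lower in both genotypes, and the call hung on single libraries. In the hearts labelled cSirt4-Tg it averaged 368.0 ± 274.4 in cSirt4-Tg-TAC and 603.7 ± 91.7 in cSirt4-Tg-Sham, a fall of log2 -0.95 (SE 0.34, limma, adjusted p = 0.0494, with 5 of 6 libraries lower). The call was lost in 18 of 28 alternatives and held in 9, and in 1, with a single library left in cSirt4-Tg-TAC, the sign turned. Leaving out any one of cSirt4-Tg-TAC 1 to 5 or cSirt4-Tg-Sham 2 to 6 ended it, with adjusted p = 0.0644 to 0.154, while the log2 difference stayed between -0.98 and -0.72 (it was -0.98 without cSirt4-Tg-TAC 4, adjusted p = 0.0743). Without cSirt4-Tg-TAC 6 it was log2 -1.26 (adjusted p = 0.00263). In controls it averaged 679.1 ± 384.6 in Con-TAC and 1130 ± 261 in Con-Sham (log2 -0.90, SE 0.34, adjusted p = 0.106, 5 of 6). This passed without Con-TAC 1 (log2 -1.13, adjusted p = 0.0306), where 1543 of all genes were called, against 863 with that library. The effects of TAC in both genotypes differed by log2 -0.05 (95% interval -1.02 to 0.92, adjusted p = 0.989).

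Angpt1 was also lower in libraries labelled cSirt4-Tg, below the threshold for a call. In cSirt4-Tg-TAC against Con-TAC the log2 difference was -0.94 (SE 0.34, limma adjusted p = 0.0776, 5 of 6 libraries). It passed without cSirt4-Tg-TAC 6 (log2 -1.25, adjusted p = 0.00465) and without Con-TAC 6 (log2 -1.14, adjusted p = 0.0220). Over all genes 1054 were called with all libraries, 3642 without cSirt4-Tg-TAC 6 and 2812 without Con-TAC 6. Within the libraries named 7 to 14 the Angpt1 means were 259.4 in cSirt4-Tg-TAC and 754.9 in Con-TAC (log2 -1.45, adjusted p = 0.0140, 5 libraries each). In cSirt4-Tg-Sham against Con-Sham it averaged 603.7 ± 91.7 and 1130 ± 261, and the groups did not overlap, from 446.6 to 724.2 against 843.8 to 1454 (log2 -0.89, SE 0.34, adjusted p = 0.226). Groups did not overlap for 3.89% of all genes in that comparison. With MitoQ the difference between cSirt4-Tg-TAC-MQ and Con-TAC-MQ was log2 0.21 (95% interval -0.48 to 0.90).

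Markers of other cell types moved beside Angpt1. Of 10 fibroblast markers 4 fell and none rose in cSirt4-Tg-TAC-MQ against cSirt4-Tg-TAC, where 17.3% of all genes were called. Their summed level ran from 85572 to 103666 in cSirt4-Tg-TAC-MQ, from 75012 to 177537 in cSirt4-Tg-TAC and from 69715 to 99578 in cSirt4-Tg-Sham. Of 12 cardiomyocyte markers 3 rose with MitoQ there, with sums from 2307400 to 2476630, from 1329650 to 3082670 and from 2315840 to 2820380 in the same 3 groups. Of 12 macrophage markers 1 fell, with sums from 14935 to 17089, from 9314 to 22736 and from 13100 to 19318. In cSirt4-Tg-TAC against cSirt4-Tg-Sham (16.7% of all genes called) 6 of 10 fibroblast markers rose, 6 of 12 cardiomyocyte markers fell and 0 of 12 macrophage markers were called. In cSirt4-Tg-TAC against Con-TAC (6.48% of all genes called) 3 of 10 fibroblast and 6 of 12 macrophage markers rose and 1 of 12 cardiomyocyte markers fell. In cSirt4-Tg-Sham against Con-Sham (0.873% of all genes called) 7 of 12 macrophage markers and 1 of 10 fibroblast markers rose. In Con-TAC against Con-Sham (5.3%) 3 of 10 fibroblast markers rose. Their sums ran from 55918 to 110186 in Con-TAC and from 50941 to 58127 in Con-Sham for fibroblasts, and from 8481 to 12577 in Con-TAC and from 7280 to 10041 in Con-Sham for macrophages. No marker of these lists was at 0 in all libraries of a group. Their part in the Angpt1 differences was not tested.

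Tek (ENSMUSG00000006386, mm39 chromosome 4, 94627526 to 94763213, plus strand), which encodes the receptor of angiopoietin 1, stayed within a narrow range while its ligand moved. The lowest, median and highest Tek counts were 1553, 1648 and 1734 in cSirt4-Tg-TAC-MQ, 1533, 1736 and 2066 in Con-TAC-MQ, 1163, 1345 and 1676 in cSirt4-Tg-TAC, 1352, 1450 and 2124 in Con-TAC, 1470, 1592 and 1731 in cSirt4-Tg-Sham, and 1288, 1625 and 1787 in Con-Sham. In cSirt4-Tg-TAC 4 of 6 libraries fell below all 6 of cSirt4-Tg-TAC-MQ. The log2 difference with MitoQ in these hearts was 0.23 (SE 0.10, limma adjusted p = 0.0897, 6 of 6 libraries), which did not pass, and it passed without cSirt4-Tg-TAC 4 (0.29, adjusted p = 0.0493) or without cSirt4-Tg-TAC 6 (0.28, adjusted p = 0.0328). In the fit that also holds the name number class, which rests on Con-TAC 6 for that class, it turned to -0.28. Over all genes 2821 were called in this comparison with all libraries, 2166 without cSirt4-Tg-TAC 4 and 4444 without cSirt4-Tg-TAC 6. In cSirt4-Tg-TAC against cSirt4-Tg-Sham the difference was -0.18 (adjusted p = 0.204).

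Of 5 other genes of the pathway Svep1, a matrix protein that binds the orphan receptor Tie1, was the gene called. It averaged 2273 ± 1017 in cSirt4-Tg-TAC, 954.8 ± 704.7 in Con-TAC and 987.5 ± 331.2 in cSirt4-Tg-Sham. It rose by log2 1.30 in cSirt4-Tg-TAC against Con-TAC (SE 0.35, limma adjusted p = 0.0278) and by log2 1.08 against cSirt4-Tg-Sham (adjusted p = 0.0305). Of all genes 6.48% and 16.7% were called in these comparisons. Angpt2, the ligand that can oppose angiopoietin 1 at Tek, averaged 142.1 ± 90.3 in cSirt4-Tg-TAC and 111.8 ± 23.0 in cSirt4-Tg-Sham and was not called in any comparison.

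Apln (ENSMUSG00000037010, mm39 chromosome X, 47114023 to 47123730, minus strand) was the least abundant of the 10 genes and spread widely within most groups. The Apln counts (lowest, median, highest) were 204.2, 232.0 and 313.0 in cSirt4-Tg-TAC-MQ, 166.9, 229.4 and 486.5 in Con-TAC-MQ, 133.8, 189.9 and 416.8 in cSirt4-Tg-TAC, 90.9, 274.1 and 350.8 in Con-TAC, 145.1, 230.6 and 503.0 in cSirt4-Tg-Sham, and 239.1, 335.4 and 477.5 in Con-Sham. No groups separated. The differences nearest the threshold were log2 -0.50 in Con-TAC against Con-Sham (SE 0.32, limma adjusted p = 0.361) and -0.53 in cSirt4-Tg-Sham against Con-Sham (adjusted p = 0.496). With 95% intervals from -1.15 to 0.15 and from -1.17 to 0.12, changes to below a log2 difference of -1 are not out of range. With MitoQ in cSirt4-Tg-TAC-MQ against cSirt4-Tg-TAC it was 0.16 (adjusted p = 0.761), and 1.83 in the fit that also holds the name number class. That value rests on Con-TAC 6, the lowest Apln library of its group (90.9).

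Its receptor Aplnr (ENSMUSG00000044338, mm39 chromosome 2, 84966569 to 84970267, plus strand) also spread widely within groups. It ranged over 579.1, 726.4 and 1215 in cSirt4-Tg-TAC-MQ, 401.8, 867.5 and 1313 in Con-TAC-MQ, 215.6, 636.2 and 965.4 in cSirt4-Tg-TAC, 499.2, 896.1 and 1327 in Con-TAC, 239.2, 717.1 and 755.1 in cSirt4-Tg-Sham, and 499.2, 580.1 and 740.9 in Con-Sham. The tightest group was Con-Sham, and all groups overlapped. Aplnr lay log2 0.53 above Con-Sham in Con-TAC (SE 0.31, limma adjusted p = 0.310) and log2 -0.62 from Con-TAC in cSirt4-Tg-TAC (SE 0.31, adjusted p = 0.195), and neither passed. Ligand and receptor did not track each other within groups (r = 0.166, adjusted p = 0.663).

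Pecam1 (ENSMUSG00000020717, mm39 chromosome 11, 106545043 to 106641454, minus strand), also known as CD31, was the steadiest. In Pecam1 the lowest, median and highest counts were 3830, 4111 and 4147 in cSirt4-Tg-TAC-MQ, 4274, 4500 and 5665 in Con-TAC-MQ, 4012, 4379 and 4803 in cSirt4-Tg-TAC, 4009, 4250 and 4977 in Con-TAC, 3539, 3883 and 4503 in cSirt4-Tg-Sham, and 3551, 4032 and 4408 in Con-Sham. All 6 cSirt4-Tg-TAC-MQ libraries lay below all 6 Con-TAC-MQ libraries, although the log2 difference of -0.22 was not called (SE 0.07, limma adjusted p = 0.625). Groups did not overlap for 0.873% of all genes there. In cSirt4-Tg-TAC against cSirt4-Tg-Sham Pecam1 lay log2 0.18 higher (SE 0.07, adjusted p = 0.0867, 6 of 6 libraries), and in Con-TAC against Con-Sham log2 0.14 higher (adjusted p = 0.260, 6 of 6), both short of the threshold. Without cSirt4-Tg-Sham 1 the first passed, at log2 0.22 with adjusted p = 0.0407.

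Cdh5 (ENSMUSG00000031871, mm39 chromosome 8, 104828257 to 104871143, plus strand), which encodes VE-cadherin, had its lowest mean in cSirt4-Tg-TAC, short of a call. Its lowest, median and highest counts were 5086, 5738 and 6641 in cSirt4-Tg-TAC-MQ, 5205, 6231 and 7382 in Con-TAC-MQ, 3830, 5173 and 5702 in cSirt4-Tg-TAC, 5374, 5629 and 6786 in Con-TAC, 4972, 5403 and 5840 in cSirt4-Tg-Sham, and 5468, 5886 and 6474 in Con-Sham. The groups overlapped throughout. Against Con-TAC the log2 difference in cSirt4-Tg-TAC was -0.22 (SE 0.09, limma adjusted p = 0.115, 6 of 6 libraries), and without cSirt4-Tg-TAC 6 it was -0.26 (adjusted p = 0.0389). In cSirt4-Tg-TAC-MQ it lay log2 0.22 above cSirt4-Tg-TAC (SE 0.09, adjusted p = 0.0827, 6 of 6), and without cSirt4-Tg-TAC 6 it was 0.26 (adjusted p = 0.0323). Without that library the calls over all genes also rose, from 1054 to 3642 against Con-TAC and from 2821 to 4444 with MitoQ.

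The wider set of 25 endothelial markers differed little between groups, with slightly higher means after TAC with vehicle than after sham. Their mean log2 value was 10.35 in cSirt4-Tg-TAC-MQ, 10.44 in Con-TAC-MQ, 10.43 in cSirt4-Tg-TAC, 10.50 in Con-TAC, 10.31 in cSirt4-Tg-Sham and 10.36 in Con-Sham. In cSirt4-Tg-TAC against cSirt4-Tg-Sham 3 of 25 rose and 1 fell, with a median of 0.13 against -0.01 for all genes, a count near the 16.7% of all genes called. Sox18, a transcription factor of vessel formation, rose by log2 0.72 (SE 0.16, limma adjusted p = 0.00378), with means of 1376 ± 97.6 in cSirt4-Tg-TAC and 847 ± 147 in cSirt4-Tg-Sham. The sialomucin Cd34 rose by log2 0.48 (adjusted p = 0.0110), and Cd34 is also found on fibroblasts. Egfl7, a secreted endothelial factor, rose by log2 0.36 (adjusted p = 0.0215), and the water channel Aqp1 fell by 0.54 on the log2 scale (adjusted p = 0.0381).

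In the other comparisons few of these markers were called. In Con-TAC against Con-Sham (5.3% of all genes called) 2 of 25 rose, Cd34 by log2 0.57 (limma adjusted p = 0.0109) and Egfl7 by log2 0.35 (adjusted p = 0.0492). In cSirt4-Tg-TAC against Con-TAC (6.48% of all genes called) 1 fell, Aqp1 by 0.74 on the log2 scale (adjusted p = 0.0199). It averaged 6569 ± 2108 in cSirt4-Tg-TAC and 10720 ± 2619 in Con-TAC. With MitoQ in cSirt4-Tg (17.3% of all genes called) 1 fell, Ecscr, an endothelial surface protein, by 0.44 on the log2 scale (adjusted p = 0.0263). In the remaining 3 comparisons 0 were called. The shares of all genes were 0.873% in cSirt4-Tg-Sham against Con-Sham, 3.23% in Con-TAC-MQ against Con-TAC and 0.0737% in cSirt4-Tg-TAC-MQ against Con-TAC-MQ.

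Of 12 tip cell and sprouting genes 5 rose in cSirt4-Tg-TAC against cSirt4-Tg-Sham, with a median of 0.37, and none fell, where 16.7% of all genes were called in either direction. Unc5b, a netrin receptor of tip cells, rose by log2 0.81 (SE 0.18, limma adjusted p = 0.00317) and averaged 1297 ± 405 in cSirt4-Tg-TAC and 720 ± 104 in cSirt4-Tg-Sham. Esm1, a proteoglycan of tip cells, rose by log2 1.05 (adjusted p = 0.0188), with 73.0 ± 26.4 against 33.3 ± 5.9. Mcam rose by log2 0.53 and Ramp3, a receptor subunit for adrenomedullin, by log2 0.73 (adjusted p = 0.00398 and 0.00839). With MitoQ in these hearts 3 of 12 fell, where 17.3% of all genes were called, namely Esm1 (log2 -0.90), Ramp3 (log2 -0.56) and Unc5b (log2 -0.52, adjusted p = 0.0398, 0.0348 and 0.0358). None of the 12 was called in the other 5 comparisons.

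Of 17 hypoxia and HIF genes 6 rose and 1 fell in cSirt4-Tg-TAC against cSirt4-Tg-Sham (16.7% of all genes called), where Vegfa, a textbook HIF target, differed by log2 0.00. Car9, a carbonic anhydrase induced by low oxygen, averaged 56.1 ± 37.8 in cSirt4-Tg-TAC and 4.3 ± 3.6 in cSirt4-Tg-Sham (log2 3.52, SE 0.60, limma adjusted p = 0.000525). The glycolytic enzyme gene Ldha rose by log2 0.34 (adjusted p = 0.00264), with 18371 ± 1723 in cSirt4-Tg-TAC and 14480 ± 1459 in cSirt4-Tg-Sham. The prolyl hydroxylase gene Egln3 rose by log2 0.75 and Ankrd37 by log2 0.76 (adjusted p = 0.0129 and 0.0202). The gene that fell, chosen after its values were seen, was Epas1, which encodes HIF-2 alpha, and it fell by 0.27 on the log2 scale (adjusted p = 0.0370). With MitoQ in these hearts 4 fell and 1 rose (17.3% of all genes called), including Ldha (log2 -0.41, adjusted p = 0.000426), the mitophagy gene Bnip3 (log2 -0.68, adjusted p = 0.00473) and Car9 (log2 -2.25, adjusted p = 0.00896), and the oxygen sensor Egln1 rose by log2 0.37 (adjusted p = 0.0172). In Con-TAC against Con-Sham 1 of 17 rose, Car9, with 15.0 ± 12.0 against 2.0 ± 2.7 (log2 2.57, adjusted p = 0.0141). In cSirt4-Tg-TAC against Con-TAC 2 fell, Egln1 and Epas1, and in the other 3 comparisons none was called.

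Arterial genes and inhibitors of angiogenesis were mixed. Of 12 Notch and arterial genes 1 rose in cSirt4-Tg-TAC against cSirt4-Tg-Sham (16.7% of all genes called), Ltbp4 by log2 0.61 (limma adjusted p = 0.00307). With MitoQ in these hearts 1 rose, the receptor gene Notch1, which averaged 1727 ± 274 in cSirt4-Tg-TAC-MQ and 1192 ± 104 in cSirt4-Tg-TAC (log2 0.52, adjusted p = 0.00332), and 2 fell, Gja4 and Ltbp4. Of 11 genes listed as inhibitors 3 rose and 1 fell in that TAC comparison (16.7% of all genes called). The rise was led by Serpinf1, which encodes the pigment epithelium-derived factor, at 2477 ± 1136 in cSirt4-Tg-TAC and 763 ± 190 in cSirt4-Tg-Sham (log2 1.52, adjusted p = 0.00255). Col18a1, the source of endostatin, rose by log2 0.90 and Sema3f by log2 0.85 (adjusted p = 0.00993 and 0.0157), and Thbs2 fell by 0.63 on the log2 scale (adjusted p = 0.0457). Serpinf1 fell by 1.24 on the log2 scale with MitoQ in these hearts (adjusted p = 0.00733). In Con-TAC against Con-Sham it rose by log2 1.25 (adjusted p = 0.0221). Vash2 rose by log2 1.81 in cSirt4-Tg-TAC against Con-TAC (adjusted p = 0.0352). It stands in this list, although its product is mostly described as promoting vessel growth.

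Within groups, 2 of the 45 pairs among the 10 genes passed a test for varying together. Each log2 value was taken relative to its group mean over 36 libraries, and 45 pairs were compared by permutation within groups. The median Pearson r was 0.0686, from -0.472 to 0.703, and both pairs past an adjusted p of 0.05 held Aplnr. Cdh5 and Aplnr had r = 0.703 (Spearman rho 0.646, permutation p = 4e-05, adjusted p = 0.0018), and r = 0.559 without the 2 libraries farthest from the Cdh5 median. Kdr and Aplnr had r = 0.690 (rho 0.630, permutation p = 0.00015, adjusted p = 0.00338), and r = 0.601 without the 2 farthest from the Kdr median. The libraries left out differ between these pairs and were not chosen by Aplnr. The receptors Kdr and Flt1 had r = -0.234 (rho -0.326, permutation p = 0.250, adjusted p = 0.489). Angpt1 and its receptor Tek had r = 0.104 (adjusted p = 0.805), and Pecam1 and Cdh5, both genes of endothelial junctions, r = 0.0686 (adjusted p = 0.859). Further pairs short of the threshold reached r = 0.531 for Kdr and Cdh5 (adjusted p = 0.075) and r = -0.472 for Flt1 and Aplnr (adjusted p = 0.0888).

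**Figure D4:**
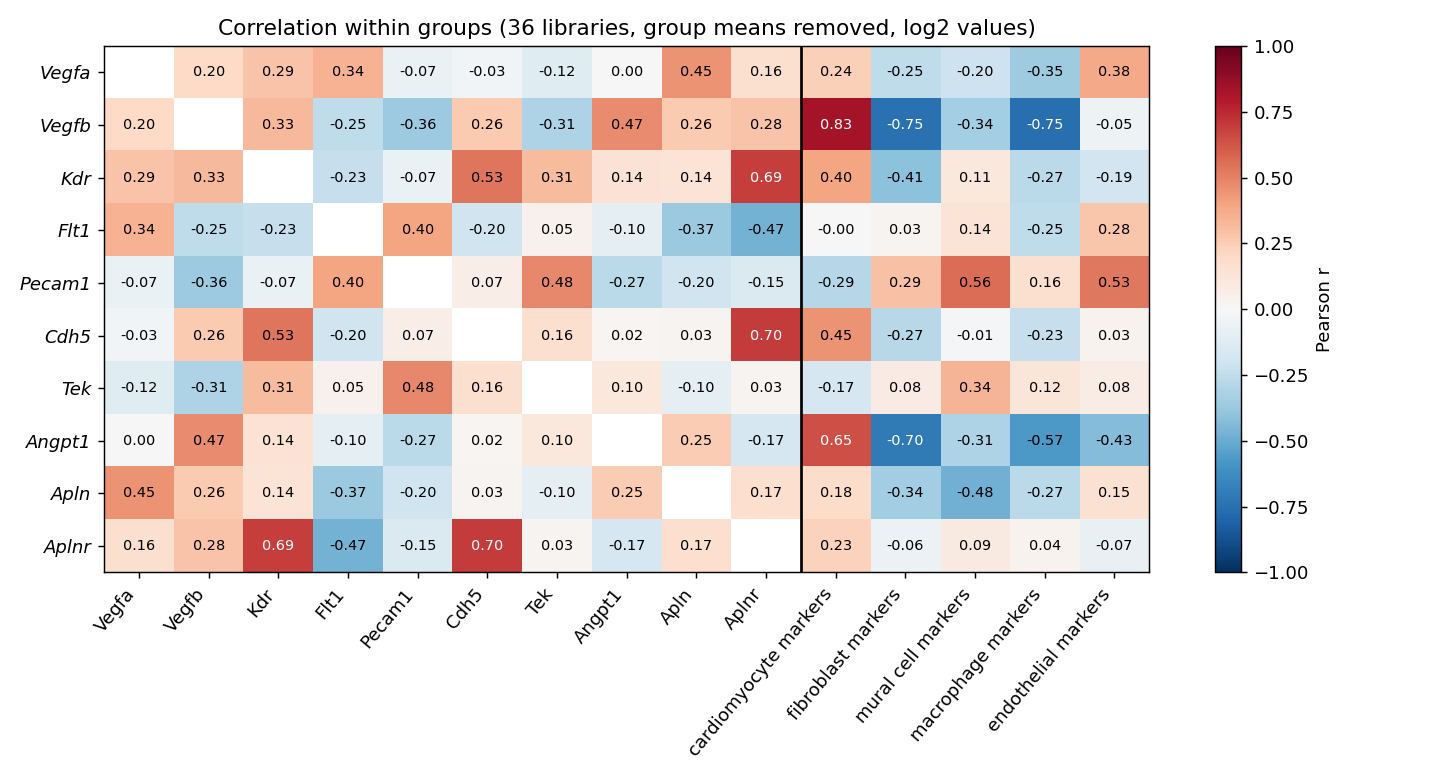
Pearson r over 36 libraries of log2 values with group means removed, between the 10 genes (left of the line) and between them and the mean of 5 marker lists (right of the line), on a colour scale from -1 to 1. Aplnr stands out with Cdh5 and Kdr, and Vegfb with the cardiomyocyte markers at 0.83.

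Vegfb and Angpt1 went with cardiomyocyte markers and against fibroblast and macrophage markers. Against the mean log2 value of 5 marker lists, 50 relations were computed. Values without 2 leave out the 2 libraries farthest from the median of the gene, not of the marker list. Vegfb went with the 12 cardiomyocyte markers (r = 0.829, rho 0.585, permutation p = 7e-05, adjusted p = 0.002, and r = 0.728 without the 2 farthest libraries). It went against the fibroblast markers (r = -0.749, rho -0.614, adjusted p = 0.00233, r = -0.742 without 2) and the macrophage markers (r = -0.754, rho -0.607, adjusted p = 0.002, r = -0.657 without 2). Angpt1 had the same signs, with r = 0.645 for cardiomyocyte markers (rho 0.514, permutation p = 0.00265, adjusted p = 0.0198, r = 0.490 without 2) and r = -0.705 for fibroblast markers (rho -0.622, permutation p = 0.00047, adjusted p = 0.00588, r = -0.591 without 2). For macrophage markers its r was -0.573 (rho -0.478, adjusted p = 0.0198, r = -0.390 without 2).

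With the 25 endothelial markers Pecam1 alone passed (r = 0.527, rho 0.551, permutation p = 0.0031, adjusted p = 0.0198, r = 0.540 without 2), and it also went with the mural cell markers (r = 0.558, rho 0.516, adjusted p = 0.0198, r = 0.410 without 2). Kdr, Cdh5, Tek and Aplnr had r from -0.192 to 0.0777 with these 25 markers. All relations are between values of the same libraries, which share depth and scaling.

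**Figure D5:**
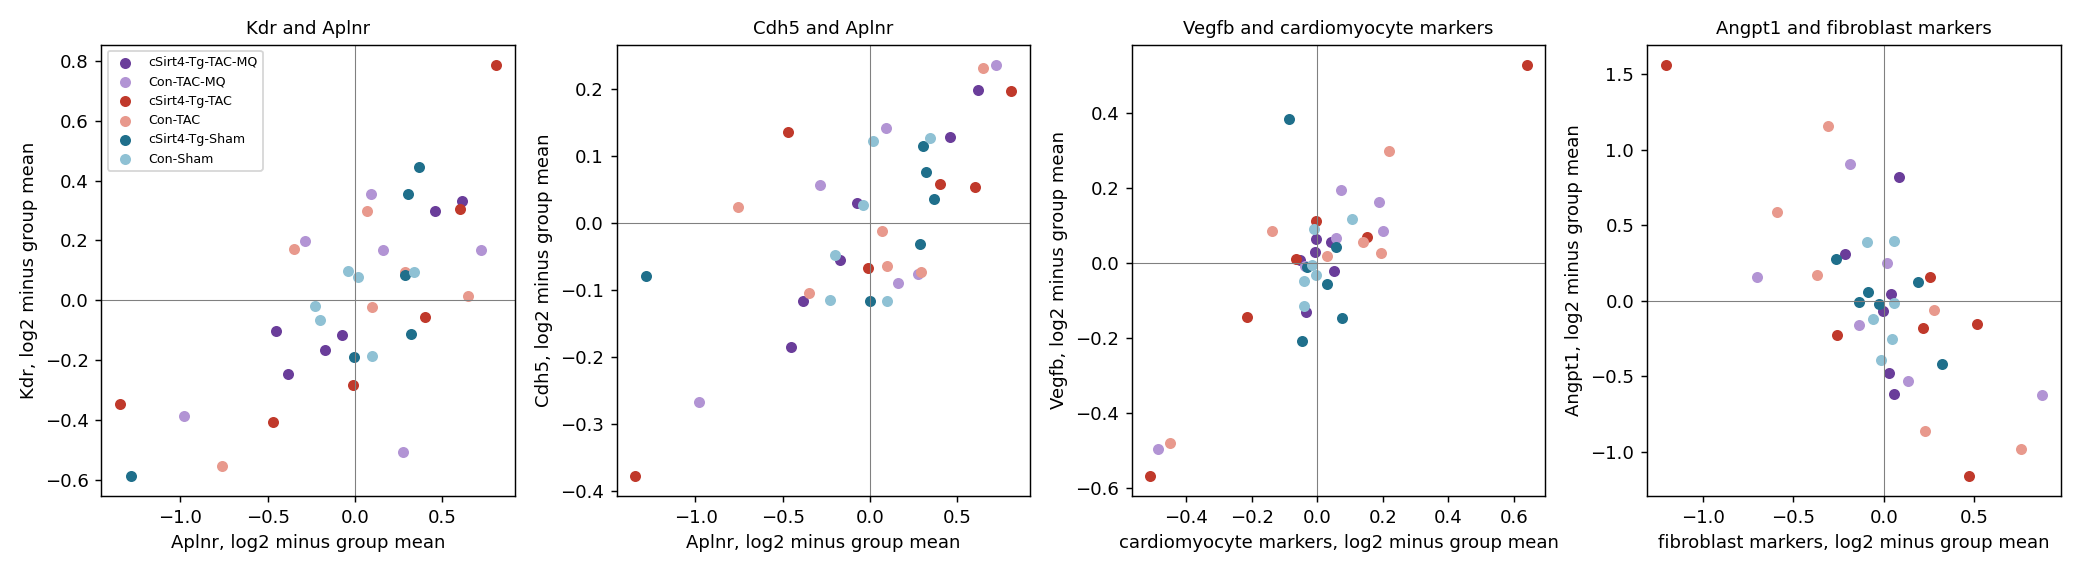
Log2 values minus the group mean for 4 pairs in 36 libraries (points, coloured by group). Kdr and Cdh5 rise with Aplnr, Vegfb rises with the mean of the cardiomyocyte markers, and Angpt1 falls with the mean of the fibroblast markers (r = 0.690, 0.703, 0.829 and -0.705).

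The genes most alike in pattern over these 36 libraries were found by the same r, among genes with a mean of at least 100. For Vegfb they were Sgca, a sarcoglycan of muscle, at r = 0.953, the ATP synthase subunit gene Atp5c1 at 0.952 and the respiratory chain gene Cyc1 at 0.950. For Angpt1 they were Pfkfb1, a regulator of glycolysis, at r = 0.882, the phosphorylase kinase gene Phkg1 at 0.830 and Nectin2 at 0.825. Flt1 was most like Filip1 (r = 0.887), Kdr most like Pacsin2 (0.827), Tek most like Fat4 (0.727), Cdh5 most like Tspan13 (0.786) and Aplnr most like the protocadherin gene Pcdh12 (0.778). The closest for Vegfa was Sipa1 (0.734), for Pecam1 Mmp28 (0.735) and for Apln Akt1 (0.686). These are descriptions, since each was picked as the highest of many.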

How the data were processed

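RNA from whole hearts was sequenced in 36 libraries, 6 per group, after extraction with an RNeasy Fibrous Tissue kit and a directional library kit, per the labels. The submitters' processing notes name Trim Galore, STAR and mm39; neither versions nor the tools that counted and normalized reads are stated there. The deposited values are a signal, a read count that the authors divided by 1 factor per library, since 100% of values came out as whole reads within 0.01 read. Those reads went to edgeR 4.0.16 and DESeq2 1.42.0.

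Groups came from the labels. A gene entered the tests when 6 or more libraries reached a value of 10, which left 16275 of 25626. limma 3.58.1 (R 4.3.3) compared log2(value + 1), with 1 mean per group over 36 libraries, a mean-variance trend and robust moderation, two-sided, adjusted by Benjamini-Hochberg with a threshold of 0.05. A library counts as higher or lower by its side of the other group's mean. Whether counting used strand is not stated, so overlapping genes may share reads. Promoters came from RefSeq. Correlations used 100000 permutations within groups. The steps were tested on simulated data.

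The 10 genes and the gene lists were chosen with earlier results of these data known. All 10 genes are named, with up to 4 called genes per list and comparison by smallest adjusted p, and the genes most alike in r. Alternatives were pseudocounts of 0.5 and 10, another filter or none, TMM factors, one total outside the mitochondrial genome for every library, a replicate block, the name number class, array weights, fewer libraries, edgeR, DESeq2 and each library left out. Scaling to the endothelial markers and the name numbers 29 to 31 alone were added after the data were seen.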

Additional observations from a re-analysis of the deposited data

Results flagged for a closer look

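Of 60 groups of 6 values (10 genes in 6 groups), 5 held a library far from the other 5 by the Dixon criterion, and chance flags about 1 in 20 groups. Angpt1 was 911.1 in cSirt4-Tg-TAC 6 and 137.8 to 344.9 in the other libraries of that group. Vegfb was 4419 in Con-TAC-MQ 3, where the others had 6208 to 7140, and 9125 in cSirt4-Tg-Sham 5, where the others had 6047 to 7193. Aplnr was 239.2 in cSirt4-Tg-Sham 2, where the others had 583.3 to 755.1. Cdh5 was 6786 in Con-TAC 2, where the others had 5374 to 5875. The effects of TAC or of MitoQ were not found to differ between genotypes for any of the 10 genes.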

How the results depend on the processing

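Over 7 comparisons and 2 interactions, 2670 alternative values of the 10 genes were computed. Of these 2418 kept their sign and their side of the threshold, 18 lost a call, 46 gained one and 188 changed sign. In 187 of the 188 neither value was called, 162 of them with a first log2 difference under 0.1 in size. The 25 others lay mostly in fits with the name number class or its libraries alone. The called value that turned was Angpt1 in cSirt4-Tg-TAC against cSirt4-Tg-Sham, 0.5792 with name numbers 29 to 31, where its TAC side is cSirt4-Tg-TAC 6 alone, the highest of its group. The number of the 10 genes called was 1 in that comparison. It was 0 with a pseudocount of 10, no filter, the same total outside the mitochondrial genome, the replicate block, the name number class, only the libraries compared, the name numbers 29 to 31, edgeR or DESeq2. It was 3 with array weights, 2 without 4 doubted libraries (Con-Sham 2, Con-TAC-MQ 5 and, of cSirt4-Tg-TAC, 4 and 6), 3 when scaled to the endothelial markers, and 0 to 2 with 1 library left out. In cSirt4-Tg-TAC-MQ against cSirt4-Tg-TAC it was 1, and 5 with the same total outside the mitochondrial genome, 3 with the name number class, 5 with array weights, 3 without the 4 libraries, 4 when scaled to the endothelial markers and 1 to 4 with 1 library left out. In cSirt4-Tg-TAC against Con-TAC it was 0, and 2 with the name number class, 3 with array weights, 2 with name numbers 7 to 14, 2 without the 4 libraries and 0 to 4 with 1 library left out. The other counts were 0, except in Con-TAC against Con-Sham 1 with array weights and 0 to 1 with 1 library left out, in cSirt4-Tg-Sham against Con-Sham 1 with only the libraries compared, in Con-TAC-MQ against Con-TAC 2 with array weights, and in cSirt4-Tg-TAC-MQ against Con-TAC-MQ 1 with array weights. For MitoQ against vehicle, the fit with the name number class rests on Con-TAC 6, the single vehicle library named 20 or 21. The cause of these changes in count was not tested.

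Replicate numbers did not pair the libraries (r of same-numbered deviations from -0.483 to 0.311, over 0.1 in 6 of 42 pairs). With the replicate block the Angpt1 call in cSirt4-Tg-TAC against cSirt4-Tg-Sham had an adjusted p of 0.06004, and no other call of the 10 genes changed. Counts over all genes moved by more than 1.5 times under some settings, for example to 4926 with array weights from 2716 in cSirt4-Tg-TAC against cSirt4-Tg-Sham.

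The data limit what can be said of low and uneven genes. Apln and Angpt1 had as few as 104 and 111 reads in a library, and their SEs were 0.32 and 0.34 on the log2 scale, against 0.07 for Pecam1. Endothelial cells are a part of whole-heart RNA, and protein, isoforms such as soluble Flt1, and vessel density are not analysed here.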

Other observations

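Single genes of further cell type lists were called in hearts labelled cSirt4-Tg, where 16.7% of all genes were called with TAC and 17.3% with MitoQ. Of 7 lymphatic endothelial markers, Prox1, the transcription factor of lymphatic identity that cardiomyocytes also express, rose with MitoQ (log2 0.71, limma adjusted p = 0.0343) and the chemokine gene Ccl21a fell (log2 -0.63, adjusted p = 0.0352). Of 5 endocardial markers tested, Npr3 (log2 1.07) and Plvap (log2 1.34) rose in cSirt4-Tg-TAC against cSirt4-Tg-Sham (adjusted p = 0.0218 and 0.0190). Of 11 mural cell markers 3 rose in the same comparison, Des by log2 0.90, Tagln by log2 1.06 and the pericyte proteoglycan gene Cspg4 by log2 0.55 (adjusted p = 0.00130, 0.0287 and 0.0470), and Des is also abundant in heart muscle. With MitoQ in these hearts 3 fell, Des by 0.90, the pericyte gene Higd1b by 0.54 and Tagln by 0.96 on the log2 scale (adjusted p = 0.000749, 0.0249 and 0.0465). Of 4 platelet and megakaryocyte markers tested Itgb3 rose with TAC (log2 1.41, adjusted p = 0.00263).

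In control hearts 5 of 6 erythroid markers rose in Con-TAC against Con-Sham, where 5.3% of all genes were called, among them Hbb-bt by log2 1.34 and Alas2 by log2 1.16 (adjusted p = 0.0110 and 0.0129), as did the platelet gene Ppbp by log2 1.97 (adjusted p = 0.0187). Of the 4 adipocyte markers tested none passed in any of the 7 comparisons by limma, with a median log2 difference of 1.58 in cSirt4-Tg-TAC against cSirt4-Tg-Sham and 2.09 in cSirt4-Tg-TAC against Con-TAC. Their levels rested on cSirt4-Tg-TAC 4, where Adipoq, the adiponectin gene, reached 2678 normalized counts and was at most 29.7 in every other library. The same library had the lowest Vegfb (3887), Cdh5 (3830) and Aplnr (215.6) and the highest Apln (416.8) and Tek (1676) of the cSirt4-Tg-TAC group. The part of adipocyte RNA in these values was not tested.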
